A study of Mus musculus with 12 samples.

Results

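The CD3 chains and the first signalling proteins behind the T-cell receptor were examined in sorted CD4-CD8 double-negative thymocytes, the immature thymic cells that carry neither co-receptor. The 9 genes were Cd3e, Cd3d, Cd3g, Cd247, Lck, Zap70, Lat, Prkcq and Themis, and all probes carrying one of these symbols in the platform annotation were taken. There were 17 such probes for 8 of the 9 genes, of 45281 probes on the array, and Lck was not analysed here. A probe entered the tests if it was detected (detection p-value under 0.05 against negative-control beads) on at least 3 of the 12 arrays. Of the 17 probes, 16 passed, so that each of the 8 genes had at least 1 tested probe.

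All mice were C57BL/6 and 2 months old. There were 6 wild-type arrays, 3 arrays of CD2-LMO2 transgenic cells (called Lmo2 arrays) and 3 arrays of CD2-Lmo2 transgenic cells that also lacked Lyl1 (called knockout arrays). The transgene is named for the CD2 promoter, which is active in T-lineage cells. Total RNA was read in 1 colour on Illumina MouseWG-6 v2.0 BeadChips. No label ties an array to a mouse. The spread behind each p-value is that between the arrays as hybridised, and part of it may be technical. The raw table names wild-type replicates 1 to 3 by their titles, while the names of the other 3 wild-type columns also hold NHD13, a term not explained by the labels. These match wild-type replicates 4 to 6, and the members are also given against each wild-type set.

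The CD3 epsilon, delta and gamma chains pair with one another and, together with a dimer of the zeta chain encoded by Cd247, carry the T-cell receptor and the pre-T-cell receptor to the cell surface. Their cytoplasmic tails are phosphorylated by the kinase Lck, and the kinase Zap70 docks there and phosphorylates the adaptor Lat, on which further signalling proteins assemble. In the double-negative stage this route carries the pre-T-cell receptor signal that allows passage beyond beta-selection, and Themis acts later, in the selection of thymocytes with a complete receptor.

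The promoters of 4 members are shown because Cd3g and Cd3d are transcribed away from each other from starts 1355 bases apart, and because Lat and Themis had the most alike values of any member pair. Each is the 250 bases before the gene's start in RefSeq (GRCm38.p6), 5′ to 3′ on the gene's strand. Capitals mark E-boxes (CANNTG, which reads the same on both strands), the motif bound by basic helix-loop-helix factors such as Lyl1. The windows are chr9:44980432-44980681 (minus strand) for Cd3g, chr9:44981536-44981785 (plus strand) for Cd3d, chr7:126369569-126369818 (minus strand) for Lat and chr10:28668110-28668359 (plus strand) for Themis, which has a second listed start nearby.
Cd3g: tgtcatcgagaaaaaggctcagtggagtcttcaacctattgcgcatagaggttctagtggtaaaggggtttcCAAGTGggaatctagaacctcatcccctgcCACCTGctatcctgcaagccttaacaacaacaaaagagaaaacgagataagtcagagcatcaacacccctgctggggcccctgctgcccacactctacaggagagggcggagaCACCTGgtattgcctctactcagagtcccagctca
Cd3d: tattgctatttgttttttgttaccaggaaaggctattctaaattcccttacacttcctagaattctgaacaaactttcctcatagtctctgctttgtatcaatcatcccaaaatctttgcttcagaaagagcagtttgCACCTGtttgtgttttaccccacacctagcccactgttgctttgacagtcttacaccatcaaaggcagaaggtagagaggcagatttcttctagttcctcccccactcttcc
Lat: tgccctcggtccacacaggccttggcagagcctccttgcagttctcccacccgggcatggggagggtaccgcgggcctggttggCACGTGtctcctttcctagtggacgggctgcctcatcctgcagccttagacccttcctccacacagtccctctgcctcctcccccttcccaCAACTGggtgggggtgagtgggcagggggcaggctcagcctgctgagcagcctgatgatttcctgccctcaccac
Themis: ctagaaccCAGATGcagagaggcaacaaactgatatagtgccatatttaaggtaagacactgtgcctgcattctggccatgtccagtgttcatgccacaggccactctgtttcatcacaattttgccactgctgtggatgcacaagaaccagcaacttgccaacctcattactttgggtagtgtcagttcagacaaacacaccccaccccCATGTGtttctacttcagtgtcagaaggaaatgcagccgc
The Cd3g window holds 3 E-boxes, those of Lat and Themis 2 each and that of Cd3d 1. An E-box was present in 66.2% of all 32851 promoter windows of this length, with a median of 1 per window, so its presence does not set these genes apart. The windows of the other members, Cd3e, Cd247, Zap70 and Prkcq, also held at least 1.

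The T-lineage transcript Thy1 read between 13.62 and 14.44 on the log2 scale over all arrays. Not every marker of double-negative thymocytes was detected throughout, and Rag2 was detected on 4 of 6 wild-type, 0 of 3 Lmo2 and 1 of 3 knockout arrays. Cd4 was detected on 2 of 6 wild-type, 1 of 3 Lmo2 and 3 of 3 knockout arrays, and Cd8a had no probe that passed. Cd8b1, which encodes the beta chain of the CD8 co-receptor, was bright in spite of the sort. It read 12.42 to 13.19 on wild-type, 9.80 to 11.07 on Lmo2 and 12.52 to 12.57 on knockout arrays. The targeted gene, Lyl1, read 7.20, 6.92, 7.08, 7.25, 6.66 and 7.24 on the wild-type arrays and 10.01, 10.19 and 11.64 on the Lmo2 arrays. On the knockout arrays it read 4.80, 5.03 and 4.90 and was detected on none of them, so that the Lmo2 arrays were at least 43-fold above them (limma, adjusted p = 2.61e-06). That bound sets the Lmo2 mean against the dimmest detected signal on each knockout array. The array's Lmo2 probe read 6.77 to 8.62 on the wild-type, 5.75 to 7.35 on the Lmo2 and 7.65 to 8.90 on the knockout arrays, and whether it matches the transgene was not tested. Between 37.9% and 43% of probes were detected per array, and arrays of a group correlated at 0.947 to 0.992 (wild-type), 0.92 to 0.963 (Lmo2) and 0.98 to 0.987 (knockout).

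None of the 8 genes, each read by its brightest probe, passed the threshold (limma, adjusted p under 0.05 over all 20651 probes tested) in any of the 3 genotype comparisons. Of all 10526 genes, 10.6% passed in Lmo2 against wild-type, 8.77% in knockout against Lmo2 and 0.893% in knockout against wild-type. At an unadjusted p under 0.05, 2 of the 8 members (Lat and Themis) passed in Lmo2 against wild-type, where 25.2% of all genes did, and none in the other comparisons, where 21.6% and 11.2% of all genes did. The median log2 difference of the members was 0.18, -0.10 and 0.10 in the order named, beside -0.02, 0.01 and -0.01 over all genes. With 8 genes, the counts of 0 and of 2 lie near these backgrounds. In knockout against wild-type the log2 differences were -0.05 for Cd3e, 0.08 for Cd3d, -0.02 for Cd3g, 0.95 for Cd247, 0.11 for Zap70, 0.14 for Prkcq, 0.11 for Lat and 0.07 for Themis, with Cd247 the one of large error (SE 0.96). In a fit with the 2 wild-type sets as groups of their own, the Lmo2 arrays differed from replicates 1 to 3 and then from replicates 4 to 6 by 0.03 and -0.02 for Cd3e, 0.11 and 0.13 for Cd3d, and -0.20 and -0.29 for Cd3g. The same differences were -1.15 and 0.33 for Cd247, 0.37 and 0.13 for Zap70 and 0.36 and 0.35 for Prkcq, and none of these 6 genes passed against either set. The sign for Cd247 thus depended on the wild-type set. The knockout arrays differed from the sets, in the same order, by -0.03 and -0.08 for Cd3e, 0.07 and 0.09 for Cd3d, 0.03 and -0.07 for Cd3g, 0.22 and 1.69 for Cd247, 0.24 and -0.01 for Zap70, 0.14 and 0.14 for Prkcq and -0.09 and 0.31 for Lat, and none of these passed. The first 2 comparisons share the Lmo2 arrays, so an opposite sign in the second is not independent of the first. In bulk RNA of this kind, fewer cells of a type and less RNA per cell cannot be told apart.

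Of 12 tested markers of double-negative thymocytes, 3 were lower (Ptcra, Rag1 and Cd7) and 1 higher (Tcf12) in Lmo2 against wild-type, where 4.97% of all genes passed downward and 5.59% upward. Ptcra, the invariant chain that pairs with the beta chain in the pre-T-cell receptor, was 2.78 ± 0.36 (SE) lower on the log2 scale on the Lmo2 than on the wild-type arrays (limma, adjusted p = 0.000355). It was detected on 2 of the 3 Lmo2 arrays. Rag1, a subunit of the recombinase that assembles receptor genes, was lower by a log2 difference of -1.57 ± 0.16 (limma, adjusted p = 5.68e-05). Both were higher on the knockout than on the Lmo2 arrays, by 2.85 ± 0.42 and 1.35 ± 0.19 (limma, adjusted p = 0.000991 and 0.000759), where 3 of the 12 markers (Cd7 with them) and 4.00% of all genes passed upward. Rag2, the partner of Rag1, did not pass in either comparison, at -0.71 ± 0.22 and 0.33 ± 0.25 (limma, adjusted p = 0.0704 and 0.56). It was not detected on any Lmo2 array, so the background limits the size of these differences.

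**Figure D1:**
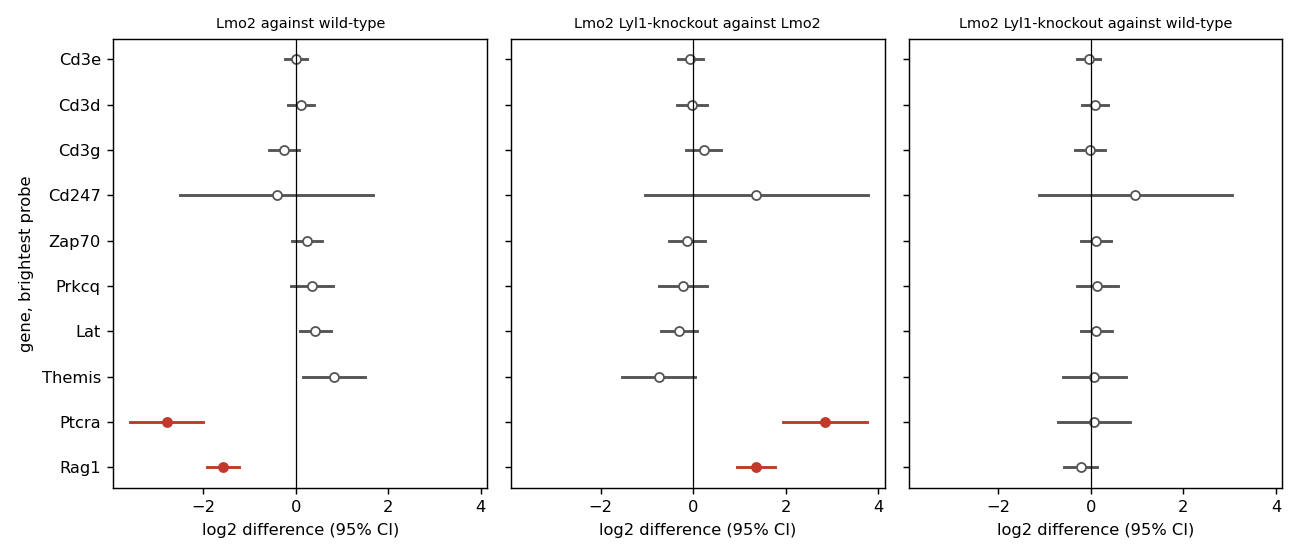
Log2 difference between group means with its 95% confidence interval for the brightest probe of each member and of Ptcra and Rag1, in the 3 genotype comparisons. Filled red points passed adjusted p under 0.05, open grey points did not. All 8 members are open in each panel, the Cd247 interval is the widest, and Ptcra and Rag1 are filled in the first 2 panels.

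The CD3 epsilon chain, which anchors both CD3 dimers, was nearly level over the arrays. Its brightest probe (ILMN_1238847) read 13.43 at the lowest, 13.49 at the median and 13.57 at the highest of the wild-type arrays, then 13.49, 13.41 and 13.58 on the Lmo2 arrays and 13.48, 13.40 and 13.43 on the knockout arrays. The 3 groups overlapped, and the SD over the 12 arrays was 0.06. The log2 difference was 0.00 ± 0.11 (SE) in Lmo2 against wild-type, with a 95% confidence interval of -0.24 to 0.25, and -0.06 ± 0.13 (interval -0.34 to 0.22) in knockout against Lmo2 (limma, adjusted p = 0.988 and 0.879). Its second probe (ILMN_2784580) gave 0.04 ± 0.13 and 0.02 ± 0.15.

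Cd3d encodes the delta chain, the partner of epsilon in one of the CD3 dimers. It read 13.45 to 13.57 on the wild-type arrays with a median of 13.52, then 13.72, 13.37 and 13.79 on the Lmo2 arrays and 13.69, 13.60 and 13.49 on the knockout arrays. The Lmo2 arrays held both the highest and the lowest value. The log2 difference was 0.12 ± 0.13 (interval -0.16 to 0.40) in Lmo2 against wild-type and -0.03 ± 0.15 (interval -0.36 to 0.29) in knockout against Lmo2.

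Cd3g encodes the gamma chain of the other dimer. It read 13.96 to 14.39 on the wild-type arrays with a median of 14.16, then 14.01, 13.71 and 14.11 on the Lmo2 arrays and 14.13, 14.32 and 14.06 on the knockout arrays. Lmo2 replicate 2 was the lowest array, and the groups overlapped. The log2 difference was -0.25 ± 0.15 (interval -0.57 to 0.08) in Lmo2 against wild-type and 0.23 ± 0.17 (interval -0.15 to 0.60) in knockout against Lmo2 (limma, adjusted p = 0.366 and 0.547). Although Cd3g and Cd3d start close together, as their promoters above show, their values correlated at only 0.19 over the 12 arrays. The groups share arrays and normalization in such a correlation, and the spread of both genes was small (SD 0.19 and 0.12).

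**Figure D2:**
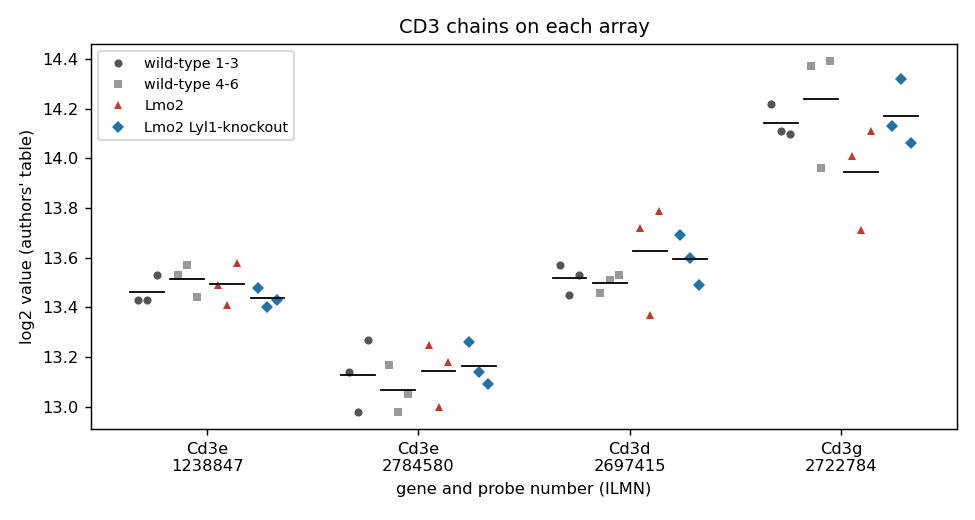
Authors' log2 values of the 4 probes of Cd3e, Cd3d and Cd3g on each of the 12 arrays, by group, with wild-type replicates 1 to 3 and 4 to 6 drawn apart. Short lines are means of 3 arrays. Every value lies between 12.98 and 14.39 and the groups overlap for each probe.

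Cd247, the zeta chain, gave the widest spread of the set, and its 3 probes did not move together. The brightest probe (ILMN_1253828) read 9.77, 11.36, 11.21, 10.20, 8.96 and 8.77 on wild-type replicates 1 to 6. It read 11.15, 11.36 and 6.40 on the Lmo2 arrays and 11.24, 10.82 and 10.94 on the knockout arrays. Lmo2 replicate 3 thus lay 2.37 below the next-lowest array. The log2 difference was -0.41 ± 0.96 (interval -2.49 to 1.67) in Lmo2 against wild-type and 1.36 ± 1.10 (interval -1.04 to 3.77) in knockout against Lmo2. Without Lmo2 replicate 3 these became 1.21 and -0.26, both of the opposite sign, and no version passed the threshold. The sign in Lmo2 against wild-type also turned with all Lmo2 arrays kept, at 0.33 against wild-type replicates 4 to 6 alone.

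The second Cd247 probe (ILMN_1256639) had Lmo2 replicate 3 as its highest array. It read 7.43 to 7.78 on the wild-type arrays with a median of 7.67, then 8.19, 7.57 and 8.30 on the Lmo2 arrays and 7.40, 7.26 and 7.62 on the knockout arrays. Its log2 difference was 0.37 ± 0.17 in Lmo2 against wild-type and -0.59 ± 0.20 in knockout against Lmo2 (limma, adjusted p = 0.231 and 0.114). The third probe (ILMN_2828172) read from 5.67 to 7.12, and its highest array was again Lmo2 replicate 3. Over the 12 arrays the brightest probe correlated at -0.56 and -0.66 with the others, which correlated at 0.75 with each other. The second probe passed the threshold in both comparisons once Lmo2 replicate 2 was left out, at 0.60 and -0.81 (limma, adjusted p = 0.0362 and 0.0143).

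Zap70, the kinase that binds phosphorylated CD3 and zeta tails, had the same split. Its brightest probe (ILMN_2513870) read 11.29 to 11.79 on the wild-type arrays with a median of 11.70, then 11.87, 11.75 and 11.97 on the Lmo2 arrays and 11.81, 11.55 and 11.81 on the knockout arrays. The groups overlapped, at a log2 difference of 0.25 ± 0.15 (interval -0.08 to 0.58) in Lmo2 against wild-type and -0.13 ± 0.17 (interval -0.52 to 0.25) in knockout against Lmo2. The probe ILMN_3005740 gave 0.20 ± 0.19 and -0.25 ± 0.22, and correlated with the brightest probe at 0.79.

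The dimmest Zap70 probe (ILMN_1223542) read 8.58, 8.61, 8.65, 8.04, 7.44 and 7.41 on the wild-type arrays, 9.27, 9.17 and 4.77 on the Lmo2 arrays and 9.06, 8.58 and 9.24 on the knockout arrays. On Lmo2 replicate 3 it was not detected and lay 2.64 below the next-lowest array, while the other Zap70 probes were not low there. Its log2 difference in Lmo2 against wild-type was -0.39 ± 0.80 with all arrays and 1.10 without that array, and in knockout against Lmo2 1.22 ± 0.92 and -0.26. None of these passed the threshold. Against wild-type replicates 1 to 3 and 4 to 6, with all Lmo2 arrays, the differences were -0.88 and 0.11.

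Lmo2 replicate 3 had more such probes than any other array. On it, 133 of the 20651 tested probes lay over 2 log2 units below all other arrays, against 17 on Lmo2 replicate 2 and 0 to 4 on each of the remaining arrays. Of the 109 of these with a single gene symbol, 86 belonged to a gene with another tested probe outside the 133. Among the 157 such other probes, 96 were not at their lowest on that array. The rest were at their lowest there, which is more than an even share over the 12 arrays would give. The cause was not tested.

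**Figure D3:**
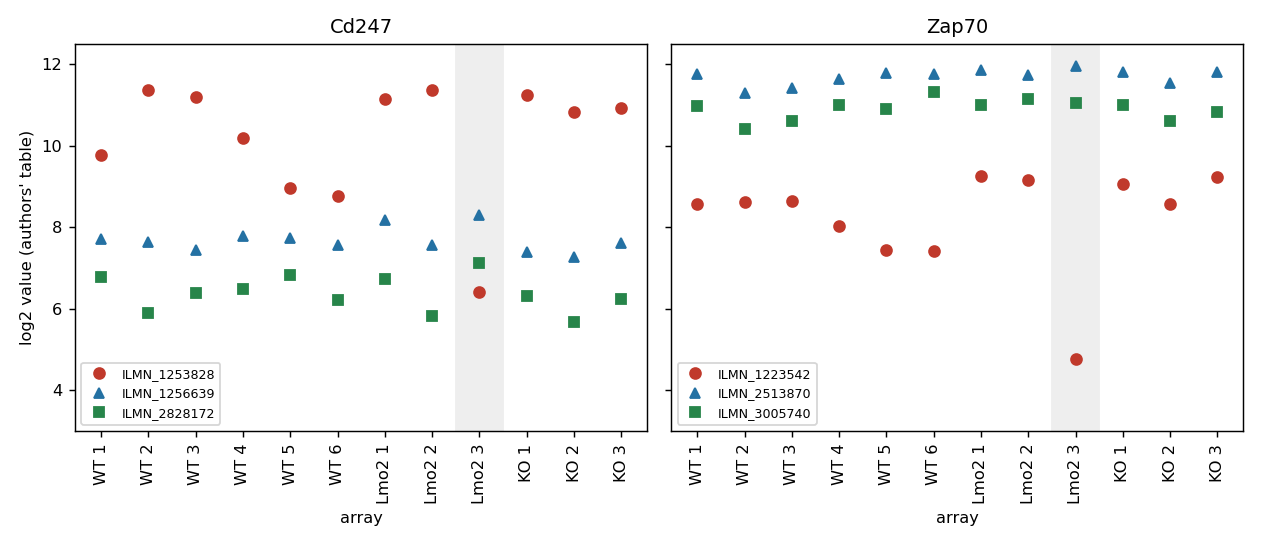
Authors' log2 values of the 3 probes of Cd247 (left) and of Zap70 (right) on each array, where WT is wild-type and KO is Lmo2 Lyl1-knockout. The grey band marks Lmo2 replicate 3, where 1 probe of each gene is at its lowest (6.40 and 4.77) while the other probes are not low.

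Prkcq, which encodes protein kinase C theta, a kinase that links the activated receptor to NF-kappaB, read 9.73, 9.0, 9.13, 9.46, 9.23 and 9.19 on the wild-type arrays. It read 9.37, 9.45 and 10.11 on the Lmo2 arrays and 9.62, 9.30 and 9.36 on the knockout arrays. Lmo2 replicate 3 was the highest array, and the groups overlapped. The log2 difference was 0.36 ± 0.20 (interval -0.09 to 0.80) in Lmo2 against wild-type and -0.22 ± 0.24 (interval -0.73 to 0.30) in knockout against Lmo2 (limma, adjusted p = 0.341 in the first). A second Prkcq probe was detected on 1 array and was not tested.

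Lat, the membrane adaptor phosphorylated by Zap70, read 12.37, 12.59 and 12.52 on wild-type replicates 1 to 3 and 12.14, 12.18 and 11.95 on replicates 4 to 6. It read 12.69, 12.72 and 12.73 on the Lmo2 arrays and 12.34, 12.47 and 12.41 on the knockout arrays. All 3 Lmo2 arrays lay above every other array, and the SD among them was 0.02. The log2 difference was 0.42 ± 0.15 (interval 0.09 to 0.76) in Lmo2 against wild-type and -0.31 ± 0.18 (interval -0.70 to 0.08) in knockout against Lmo2 (limma, adjusted p = 0.121 and 0.393).

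The size of the Lat difference depended on the wild-type set. In the fit with separate wild-type sets, Lmo2 exceeded replicates 1 to 3 by 0.22 ± 0.13 (limma, adjusted p = 0.396) and replicates 4 to 6 by 0.63 ± 0.13 (limma, adjusted p = 0.00756). Against replicates 4 to 6, 21.8% of all genes passed, and against replicates 1 to 3, 8.50%. A dimmer Lat probe (ILMN_1242795) gave 0.73 ± 0.39 in Lmo2 against all wild-type arrays, 0.49 and 0.98 against the 2 sets, and -0.56 ± 0.45 in knockout against Lmo2.

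Themis, a T-lineage protein that tunes receptor signalling during positive selection, was read by 3 probes that differed in some comparisons. The brightest of them correlated with the others at 0.63 and 0.36 over the 12 arrays, and these at 0.74 with each other. Its brightest probe (ILMN_1214364) read 9.69, 9.93 and 9.64 on wild-type replicates 1 to 3 and 8.77, 8.55 and 8.65 on replicates 4 to 6. It read 10.08, 9.86 and 10.14 on the Lmo2 arrays and 9.19, 9.08 and 9.57 on the knockout arrays. The Lmo2 arrays overlapped only with wild-type replicates 1 to 3, and the knockout arrays fell in the gap between the wild-type sets.

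Within the wild-type group, Themis was lower on replicates 4 to 6 by a log2 difference of -1.10 ± 0.17 (limma, adjusted p = 0.0124), a 2.14-fold difference in its brightest probe. The other Themis probes did not pass, at -0.61 ± 0.31 and -0.14 ± 0.29 (limma, adjusted p = 0.232 and 0.79). By brightest probes, Themis was the single member of 8 to pass in that contrast, in which 5.86% of all genes passed. Lat came next at -0.40 ± 0.13 (limma, adjusted p = 0.0836). Without Lmo2 replicate 3, whose spread enters the same fit, Cd247 (ILMN_1253828) and the dimmest Zap70 probe (ILMN_1223542) also passed in it, at -1.47 and -0.98 (limma, adjusted p = 0.0471 and 0.0154). The Themis call was lost when wild-type replicate 3, 5 or 6 was left out (limma, adjusted p = 0.0525, 0.0513 and 0.0662) and with arrays scaled to a common median, where the difference was -0.67 (limma, adjusted p = 0.156).

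Against all wild-type arrays, the Lmo2 arrays differed by 0.82 ± 0.31 (interval 0.15 to 1.50) for this Themis probe (limma, adjusted p = 0.135). They differed by 0.27 ± 0.17 from replicates 1 to 3 (limma, adjusted p = 0.429) and by 1.37 ± 0.17 from replicates 4 to 6 (limma, adjusted p = 0.000387). The knockout arrays differed from these sets in opposite directions, by -0.48 ± 0.17 (limma, adjusted p = 0.429) and 0.62 ± 0.17 (limma, adjusted p = 0.041), where 0.779% and 9.60% of all genes passed. The dimmer Themis probes ran the other way against replicates 4 to 6, at -0.33 ± 0.31 and -0.43 ± 0.29, and did not pass, so the call rests on 1 of 3 probes. Against replicates 1 to 3 they read -0.94 ± 0.31 and -0.57 ± 0.29, also not past the threshold. The knockout difference from all wild-type arrays was 0.07 ± 0.31 for the brightest probe and -0.64 ± 0.30 and -0.50 ± 0.25 for the others. For the Lmo2 arrays the dimmer probes gave -0.08 and 0.21 against replicates 1 to 3 and 0.53 and 0.35 against replicates 4 to 6, none past the threshold, so the Lmo2 call against replicates 4 to 6 rests on the brightest probe too.

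All 3 Themis probes read lower on the knockout than on the Lmo2 arrays, by -0.75 ± 0.36, -0.86 ± 0.35 and -0.78 ± 0.29, and none passed the threshold (limma, adjusted p = 0.29, 0.196 and 0.145). For the brightest probe the groups did not overlap, and in the fit with separate wild-type sets the same difference did pass (limma, adjusted p = 0.0168). The dimmer probes read 6.47, 5.46 and 6.69 (ILMN_1248231) and 7.40, 6.40 and 7.73 (ILMN_1254619) on the Lmo2 arrays, with replicate 2 the lowest each time. Without that array both passed, at -1.23 and -1.17 (limma, adjusted p = 0.037 and 0.00467), and in Lmo2 against wild-type the second of them passed at 0.67 (limma, adjusted p = 0.0455).

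**Figure D4:**
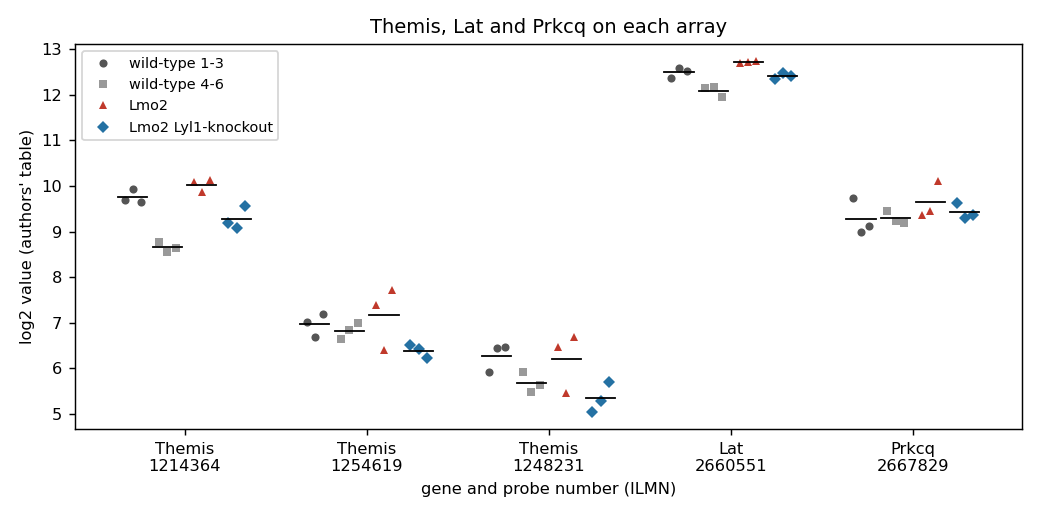
Authors' log2 values of the 3 Themis probes and the brightest probes of Lat and Prkcq on each array, by group, with both wild-type sets drawn apart. Short lines are means of 3 arrays. For ILMN_1214364 of Themis and for Lat the wild-type sets do not overlap, and the Lmo2 arrays lie highest on average.

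The genes did not vary as 1 block over the arrays. Lat and Themis correlated at 0.90 over the 12 arrays and Zap70 and Prkcq at 0.70, while Cd3g and Lat correlated at -0.61. These are descriptions over arrays that share groups and normalization. Among 10161 other genes, the most alike to Themis were Zfp84 (r = 0.98) and Pcmt1 (0.95), and to Lat Degs1 (0.98) and Paip2 (0.97). For Cd247 they were Hnrnpk (0.99) and Tpm3 (0.98), each of which was also at its lowest on Lmo2 replicate 3, at 7.77 and 10.33. For Prkcq they were Frmd8 (0.92) and Hacd1 (0.91), and for Zap70 Akr1a1 (0.87) and Pdxp (0.86). The CD3 chains, with their small spread, were nearest to Mib2 (0.83) and S100a13 (0.82) for Cd3e, Sult1a1 (0.91) and Unc119 (0.90) for Cd3d, and Ostf1 (0.86) and Mtln (0.85) for Cd3g.

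Other genes of the route were read from a list of kinases, adaptors and exchange factors, of which 35 were tested. In Lmo2 against wild-type 4 passed, all higher, where 5.59% of all genes passed upward and 4.97% downward. The list's median difference was 0.23, beside -0.02 over all genes. In knockout against Lmo2, 4 passed lower and 1 higher (background 4.77% and 4.00%), with a median of -0.24. None passed in knockout against all wild-type arrays, where the median was -0.01. In the wild-type contrast 3 passed, all lower on replicates 4 to 6 (background 3.05%), namely Pdpk1 (-1.05), Wipf1 (-0.72) and Nck1 (-0.66). Against replicates 1 to 3 alone, where 8.50% of all genes passed, 3 of the list were higher and 1 lower on the Lmo2 arrays. Against replicates 4 to 6 alone, where 21.8% passed, 9 were higher and 2 lower, and in knockout against replicates 4 to 6 (9.60%) 2 were higher and 1 lower.

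Nck2, an SH2 and SH3 adaptor that links the receptor to the actin cytoskeleton, read 5.20 to 7.02 on the wild-type arrays, 8.91, 8.81 and 9.0 on the Lmo2 arrays and 6.51, 6.96 and 6.47 on the knockout arrays. All Lmo2 arrays lay above all others. It rose by 2.54 ± 0.32 in Lmo2 against wild-type and fell by a log2 difference of -2.26 ± 0.38 in knockout against Lmo2 (limma, adjusted p = 0.00033 and 0.00249).

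Tespa1, a thymocyte protein needed for positive selection, read 10.19 to 10.83 on the wild-type arrays, 11.52, 11.66 and 12.13 on the Lmo2 arrays and 10.14, 10.27 and 10.38 on the knockout arrays. It rose by 1.32 ± 0.18 and fell by a log2 difference of -1.51 ± 0.21 in the same comparisons (limma, adjusted p = 0.00062 and 0.000815). Nck2 and Tespa1 kept both calls under every alternative run.

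Fyb, an adaptor that couples the receptor to integrins, rose by 0.70 ± 0.18 in Lmo2 against wild-type and fell by a log2 difference of -0.98 ± 0.21 in knockout against Lmo2 (limma, adjusted p = 0.0325 and 0.0128), with a second probe also past the threshold at 0.79 and -0.88. Prkd2, a protein kinase D activated downstream of diacylglycerol, rose by 0.52 ± 0.13 in the first comparison (limma, adjusted p = 0.0318). Without Lmo2 replicate 3 neither passed in Lmo2 against wild-type, at 0.46 and 0.41 (limma, adjusted p = 0.118 and 0.116), which left 2 of the 4 calls. Against wild-type replicates 1 to 3 alone neither passed, at 0.67 and 0.53 (limma, adjusted p = 0.0897 and 0.06). In knockout against Lmo2, Tec, a Tec-family kinase, fell by a log2 difference of -1.12 ± 0.30, and Malt1, the paracaspase of the complex downstream of protein kinase C theta, rose by 1.12 ± 0.29 (limma, adjusted p = 0.0454 and 0.0394). In Lmo2 against wild-type replicates 1 to 3 alone Malt1 was lower, at -1.11 (limma, adjusted p = 0.0122). The Malt1 call in knockout against Lmo2 ended without any 1 of knockout replicates 1, 2 and 3, Lmo2 replicates 1 and 2 and wild-type replicates 1 and 5. The Tec call ended without any 1 of knockout replicates 1 and 3, Lmo2 replicates 1 and 3 and wild-type replicates 1, 3, 4, 5 and 6. For Fyb the second call ended without knockout replicate 1 or 2, and for Fyb and Prkd2 the first call also ended without some single wild-type arrays (1, 4, 5 or 6 for Fyb and 2, 4 or 5 for Prkd2) and for Prkd2 without Lmo2 replicate 1.

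Of 23 tested genes listed as negative regulators, 2 were higher and 2 lower in Lmo2 against wild-type (median 0.13), beside 5.59% and 4.97% of all genes. In knockout against Lmo2, 2 were higher and 1 lower (median -0.06), beside 4.00% and 4.77%. None passed in knockout against all wild-type arrays (0.893% of all genes), and 1 was higher and 1 lower against replicates 4 to 6 alone (9.60%). Of the list, Ptprc (-1.07), whose role is not only inhibitory, and Cblb (-0.95) passed in the wild-type contrast, both lower on replicates 4 to 6 (background 3.05%). Spred1, an inhibitor of Ras-ERK signalling, read 8.63 to 9.04 on the wild-type arrays, 6.42, 6.28 and 4.78 on the Lmo2 arrays and 8.52, 8.70 and 8.63 on the knockout arrays. It was detected on 2 of the 3 Lmo2 arrays. Its log2 difference was -3.02 ± 0.29 and then 2.79 ± 0.34 (limma, adjusted p = 3.31e-05 and 0.000257).

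Sla2, an adaptor that promotes removal of receptor components, rose by 0.83 ± 0.15 in Lmo2 against wild-type and fell by a log2 difference of -0.99 ± 0.17 in knockout against Lmo2 (limma, adjusted p = 0.00368 and 0.00325), and its second probe passed in the same directions at 0.86 and -0.72. Btla, an inhibitory receptor of the immunoglobulin family, fell by a log2 difference of -1.32 ± 0.29 and rose by 1.40 ± 0.33 (limma, adjusted p = 0.0119 and 0.0224). Without Lmo2 replicate 2 its differences were -0.99 and 1.06 (limma, adjusted p = 0.0511 and 0.064), and the second call also ended without knockout replicate 1 or 2. Cd6, a surface receptor that is also on the list of mature T-cell markers, rose by 0.76 ± 0.13 in Lmo2 against wild-type (limma, adjusted p = 0.00309), and 2 of its 3 other probes passed with it, at 0.56 and 0.61. Its knockout arrays also lay above all wild-type arrays, at a difference of 0.40 ± 0.13 that did not pass (limma, adjusted p = 0.286). With arrays scaled to a common median Fyb, Prkd2, Sla2 and Cd6 no longer passed in Lmo2 against wild-type, nor did Fyb, Sla2 and Tec in knockout against Lmo2.

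**Figure D5:**
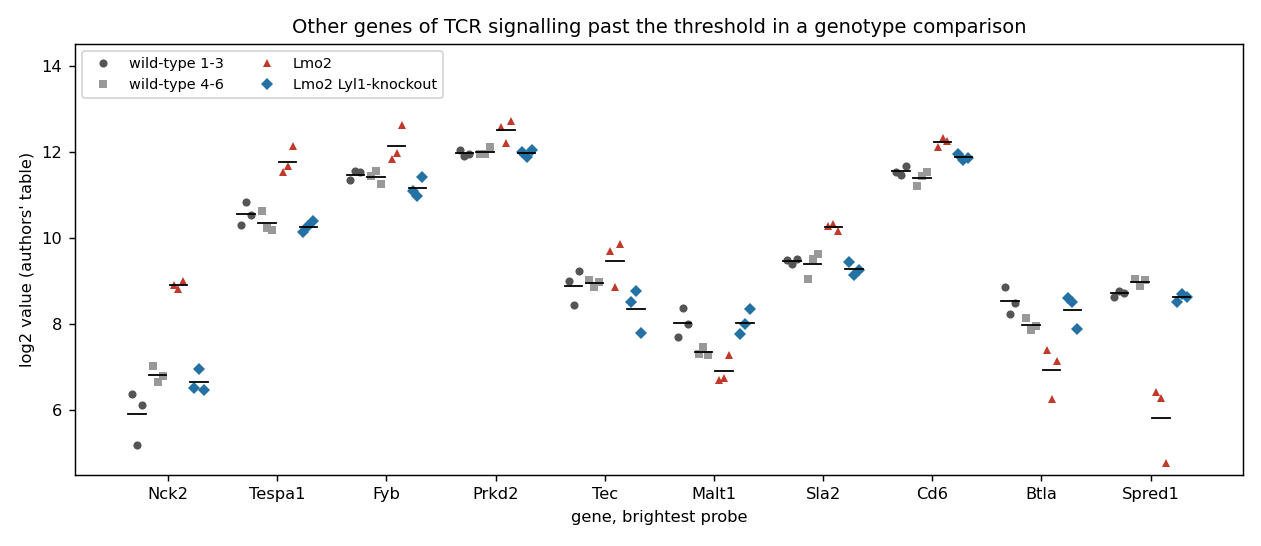
Authors' log2 values of the brightest probes of 10 other genes of T-cell receptor signalling that passed the threshold in a genotype comparison, on each array and by group. Short lines are means of 3 arrays. The Lmo2 arrays lie apart from both other groups except for Tec, and for Malt1 they come as close to the wild-type arrays as 7.29 on each side. The knockout arrays overlap the wild-type arrays except for Cd6, where they are higher (11.80 to 11.95 against 11.20 to 11.66).

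Markers of other cells differed between the groups, and their part in the values above was not tested. Of 15 tested natural killer and innate lymphoid markers, 12 were lower in Lmo2 against wild-type and 9 were higher in knockout against Lmo2, beside 4.97% and 4.00% of all genes in those directions. In knockout against wild-type 3 of the 15 were lower, where 0.893% of all genes passed in either direction. The summed level of the 15 markers on the linear scale was 16895 to 23484 on the wild-type, 4122 to 7973 on the Lmo2 and 11126 to 12576 on the knockout arrays. Klra8, Ncr1, Gzma, Gzmb and Eomes had no tested probe. Natural killer cells also carry Cd247, Zap70 and Lat. Of 7 gamma-delta T-cell markers, which mark cells that also carry CD3, 2 were higher and 2 lower in Lmo2 against wild-type (5.59% and 4.97% of all genes), and 2 were higher and 2 lower in knockout against Lmo2 (4.00% and 4.77%). Their summed level was 5651 to 7102 on the wild-type, 17300 to 38704 on the Lmo2 and 4241 to 7259 on the knockout arrays. Bright genes weigh most in this sum. Cpa3 read 13.93, 13.91 and 14.38 on the Lmo2 arrays, and Cd163l1 14.25, 8.14 and 13.86. Sox13 and Cpa3 lay higher on all Lmo2 than on all wild-type arrays, while Id3, Blk and 5830411N06Rik lay lower. Cpa3, which is also a mast-cell protease, rose by 3.40 ± 0.24 in Lmo2 against wild-type (limma, adjusted p = 3.62e-06). Il23r, Maf and Il17a had no tested probe.

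Of 5 erythroid and megakaryocyte markers, 3 were higher in Lmo2 against wild-type (5.59% of all genes) and 2 lower in knockout against Lmo2 (4.77%). Their sums were 714 to 1060 on the wild-type, 4550 to 9041 on the Lmo2 and 1149 to 1365 on the knockout arrays. Nfe2 made up most of the Lmo2 sum, at 12.56, 12.09 and 13.06 there and 9.08 to 9.75 on the wild-type arrays. Hba-a1 read 9.51, 5.84 and 8.34 on the Lmo2 arrays, against 4.65 to 7.75 on the wild-type arrays. Of 13 myeloid markers, 7 were higher in knockout against Lmo2 (4.00% of all genes), with sums of 1654 to 6052 on the Lmo2 and 27097 to 55263 on the knockout arrays. In knockout against wild-type 2 of the 13 passed higher, where 0.893% of all genes passed in either direction. All 13 lay above zero there, with a median of 1.54. Of 9 dendritic markers, 3 were lower in Lmo2 against wild-type (4.97%) and 1 was higher in knockout against Lmo2 (4.00%). The sums of myeloid, dendritic and B-cell markers also differed between the wild-type sets that differed for Themis. In that contrast 1 of 13 myeloid markers passed higher, and 2 of 9 dendritic and 1 of 10 B-cell markers passed lower. Of all genes, 5.86% passed in either direction. The myeloid markers summed to 2620 to 3617 on wild-type replicates 1 to 3 and 4184 to 14150 on replicates 4 to 6. The 9 dendritic markers summed to 25804 to 30948 and then 13448 to 17263, and the 10 B-cell markers to 5042 to 6852 and then 1960 to 2519. Bright genes weigh most in these sums too. Among the dendritic markers Cd74 read 12.90 to 13.11 and then 11.07 to 11.83, while Siglech read 7.62 to 8.46 and then 7.57 to 8.02. The median log2 difference of the 9 was -0.83, and 2 of them were higher on replicates 4 to 6. Of 8 mature T-cell markers, 1 was higher and 2 lower in Lmo2 against wild-type, beside 5.59% and 4.97% of all genes. In knockout against Lmo2, 2 of the 8 were higher, beside 4.00%. The sums of these markers were 9351 to 13129, 7587 to 11787 and 9228 to 10220 on the wild-type, Lmo2 and knockout arrays.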

How the data were processed

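The authors' deposited raw table gives a linear intensity for each probe and array. A column headed as a detection p-value follows each intensity, per the file headers. The authors' deposited value table holds log2 values, and its column medians are 4.88 to 4.89. Per the submitters' processing notes, BeadStudio and limma were used (versions not stated). Against log2 values computed from the raw table with neqc (normal-exponential background correction, quantile normalization, offset 16), each numbered column correlated at 0.99994 or higher and ran in the same direction without centring. How the authors corrected for background is not known here.

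The log2 value table was fitted with limma 3.58.1 under R 4.3.3 (lmFit, contrasts, eBayes), with 1 mean per genotype over all 12 arrays and 9 residual degrees of freedom. The tests were two-sided, with Benjamini-Hochberg adjustment over 20651 probes. A second fit gave wild-type replicates 1 to 3 and 4 to 6 a mean each. A gene with several probes was represented by the one with the highest mean. Of 45281 probes, 34885 had 1 gene symbol, 18 several and 10378 none in the platform annotation, which can be old. Levels of different probes were not compared. The members and gene lists were chosen with earlier results of these data known. Named beside the members were, for each of the 2 lists of signalling genes and each genotype comparison, the 4 called genes with the largest change, the 2 genes most alike to each member, and Lyl1, Ptcra and Rag1. Called genes of the wild-type contrast and the marker genes were named after their values were seen. The procedure was tested on simulated data. The alternatives were other background corrections, scaling, filters, array weights, a variance trend, a replicate block, fewer groups and each array left out. The number of arrays limits the precision.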

Additional observations from a re-analysis of the deposited data

How the results depend on the processing

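Over the alternatives, no called member value changed sign. The main fit held only 1 such value, Themis (ILMN_1214364) in the wild-type contrast. Of 1424 values of member probes, 1405 kept their side of the threshold, 15 came to pass it and 4 no longer did. Most of the 1405 were not called to begin with, so their number says little about robustness. Signs of uncalled values did turn in Lmo2 against wild-type, from -1.27 to 1.21 for Cd247 (ILMN_1253828) and -1.15 to 1.10 for Zap70 (ILMN_1223542). The count of member genes past the threshold in Lmo2 against wild-type was 1 with a variance trend and 1 without background correction (Lat both times). It was 2 of 8 against wild-type replicates 4 to 6 alone, near the 21.8% of all genes that passed there. The count was 1 (Themis) in knockout against Lmo2 in the fit of 4 groups. It was 1 in knockout against wild-type replicates 4 to 6, where 9.60% of all genes passed. In the wild-type contrast the count was 0 with arrays scaled to a common median, 2 with a trend and 2 without background correction, and 0 to 2 when 1 array was left out. In the main fit 5.86% of all genes passed in that contrast. For the other settings the share of all genes is not given here, so those counts cannot be set against it.

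Over all probes, 1825 passed in Lmo2 against wild-type, but 1050 with median scaling, 789 with the replicate block and 4028 against wild-type replicates 4 to 6, with 1405 to 1858 when 1 array was left out. In knockout against Lmo2, 1452 became 949 with median scaling, 700 with the groups compared alone and 949 with the replicate block, with 958 to 1630 when 1 array was left out. In knockout against wild-type, 146 became 4642 with array weights, 224 with the groups compared alone, 31 with the block, 93 with a stricter filter and 2066 against replicates 4 to 6, with 44 to 183 when 1 array was left out. In the wild-type contrast, 1295 became 705 with 1 probe per gene and 288 with median scaling, with 32 to 3232 when 1 array was left out. The causes were not tested. With median scaling the median log2 difference of all probes went from -0.01 to -0.02 in Lmo2 against wild-type. It went from 0.02 to 0.12 in knockout against Lmo2 and from 0.00 to 0.10 in knockout against wild-type. The share of calls that were higher went from 52.7% to 44.8% in Lmo2 against wild-type, from 46.3% to 60.1% in knockout against Lmo2 and from 56.2% to 69.1% in knockout against wild-type.

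Same-numbered arrays of different groups correlated in their deviations from -0.51 to 0.31, and other-numbered arrays from -0.41 to 0.39. With 3 arrays a group these values cannot decide whether the numbers pair the samples, and the replicate block is given for its counts only. A slide block was not run because the files name no slide. With 3 arrays a group, a difference that did not pass is not shown to be absent. The intervals give the uncertainty of each estimate and are not limits of detection.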
